A study of Mus musculus with 9 samples.

Results

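Complement components and receptors were represented by 9 genes of the 18303 in the count table, chosen by symbol: the C1q chains C1qa, C1qb and C1qc, the components C4b, C3, Cfb and Cfp, and the anaphylatoxin receptors C3ar1 and C5ar1. Complement is a cascade of plasma and tissue proteins that tags surfaces and recruits leukocytes. The classical pathway starts when C1q binds its targets and leads through C4 and C2 to cleavage of C3. The alternative pathway amplifies C3 cleavage through factor B and properdin, and the small fragments C3a and C5a act on receptors of myeloid cells. The liver makes most plasma complement, while tissue macrophages are a main source of C1q.

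The libraries came from macrophages of C57BL/6J wild-type mouse skin wounds, sorted by flow cytometry as CD45+CD11b+F4/80+ and sequenced as bulk RNA, with 5 libraries taken 14 days after injury and 4 taken 4 days after injury. No unwounded skin or other treatment entered the comparison, which sets the late wound against the early wound. The labels do not say that each library came from a separate animal, so p-values measure the spread between these libraries, which may be technical. Total counts ran between 17982633 and 57809918 per library.

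One library stood apart. Day 14 replicate 5 held no counts for genes beyond Aplp2 on chromosome 9, on X or on Y, apart from 4 genes that were kept in the fit of all libraries. Genes from Aplp2 onward took 0.0171% of its total, against 7.17 to 7.91% in the other libraries. It was therefore left out for genes there, which among the members touched the X-linked Cfp. In the edgeR quasi-likelihood test over 13364 genes, 4133 genes (30.9%) passed an adjusted p of 0.05 between the days, 2127 of them (15.9%) higher and 2006 (15.0%) lower at day 14. Against those shares, 0 of the 9 members were higher and 2 of 9 were lower at day 14, and the median log2 fold change was -0.06 over the members and 0.01 over all genes tested. All 9 members passed the filter on low counts. Of 8 macrophage markers, 2 were higher, 4 lower and 2 not called at day 14, and they summed to 16100 to 18300 CPM at day 14 and 15800 to 17700 CPM at day 4 (CPM, counts scaled to a common library total). The markers that were not called were the most abundant: Lyz2, a lysozyme, averaged 10660 ± 899 CPM at day 14 and 10010 ± 524 CPM at day 4, and Csf1r, the CSF1 receptor, averaged 1977 ± 108 CPM at day 14 and 2012 ± 185 CPM at day 4 (SD, n = 5 and 4).

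C3 and Cfb, the central component and the protease of the alternative pathway, fell at day 14, by 3.37-fold and 2.19-fold. The 3 C1q chains, properdin and both anaphylatoxin receptors did not pass the test, and their values overlapped between the days. C4b was higher on average at day 14 but did not pass the test. All CPM values are scaled for library composition (TMM factors) and are given in the order of the replicate numbers.

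**Figure D1:**
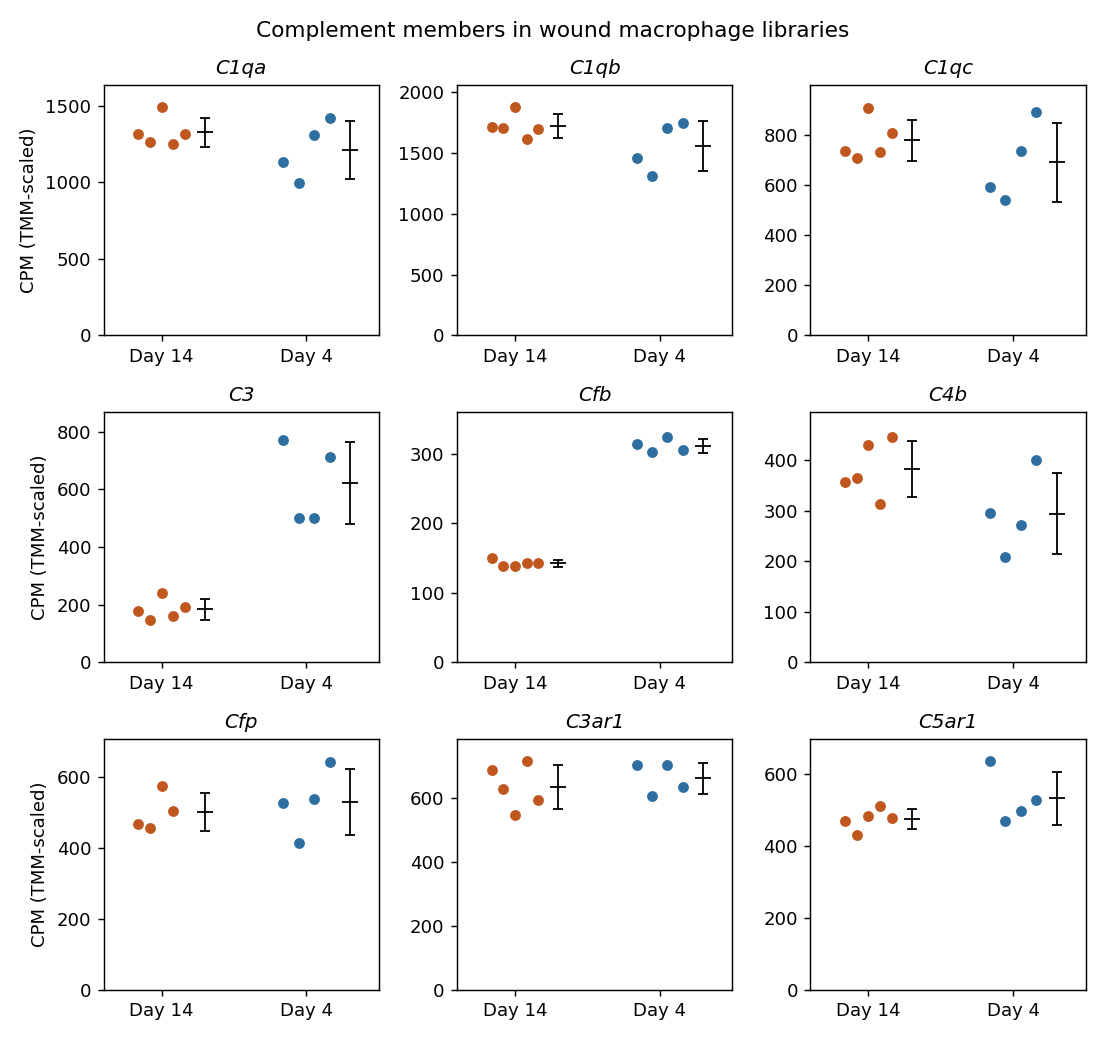
CPM of the 9 members in every library (points), with the mean and SD of each day beside them, day 14 in orange on the left and day 4 in blue on the right; Cfp has 4 points at day 14. Only C3 and Cfb separate, with every day 14 library below every day 4 library. The share of all tested genes that separate in this way was not counted.

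C1q is built from the A, B and C chains in equal number, and its 3 genes lie side by side on the minus strand of chromosome 4 (GRCm38): C1qb at chr4:136880126-136886200, C1qc at chr4:136889801-136892936 and C1qa at chr4:136895916-136898844. The windows of 250 bases before the RefSeq gene starts (GRCm38.p6) are shown for C1qb, chr4:136886201-136886450, and C1qc, chr4:136892915-136893164, as neighbours whose transcripts were compared, and for C3, chr17:57228137-57228386, as the member that fell most. All 3 lie on the minus strand and are written 5′ to 3′ along the gene, with motif matches in capitals.
C1qb: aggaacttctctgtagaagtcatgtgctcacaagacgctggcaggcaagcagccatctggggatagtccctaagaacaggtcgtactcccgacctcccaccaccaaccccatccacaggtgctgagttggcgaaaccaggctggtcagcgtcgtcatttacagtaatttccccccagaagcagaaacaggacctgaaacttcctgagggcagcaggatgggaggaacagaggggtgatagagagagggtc
C1qc: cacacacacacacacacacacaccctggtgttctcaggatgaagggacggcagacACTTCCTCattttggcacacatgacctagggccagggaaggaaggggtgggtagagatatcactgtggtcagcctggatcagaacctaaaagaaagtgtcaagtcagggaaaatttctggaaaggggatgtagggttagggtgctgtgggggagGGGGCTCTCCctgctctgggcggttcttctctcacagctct
C3: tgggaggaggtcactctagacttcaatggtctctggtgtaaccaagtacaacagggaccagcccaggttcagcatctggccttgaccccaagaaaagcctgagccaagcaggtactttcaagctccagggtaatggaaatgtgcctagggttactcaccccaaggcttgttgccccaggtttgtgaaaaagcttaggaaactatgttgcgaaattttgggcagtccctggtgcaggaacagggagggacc
The capitals in C1qc mark the reverse complement of the PU.1 motif GAGGAAGT, 195 to 188 bases before the start, and a kappaB match 41 to 32 bases before it. Both strands were searched for GAGGAAGT, held by 2.44% of 32851 promoter windows of this length, kappaB (3.90%), the MARE-type TGCTGAC (3.81%), the GAS motif TTCNNNGAA (7.02%), an ISRE written as GAAA repeated after a gap of 2 bases (2.98%) and the C/EBP motif TTGCNNCAA (1.74%). Of the 6 members with a window in the RefSeq table (C1qb, C1qc, C3ar1, C5ar1, C3 and Cfp), C1qc was the one with a match, which is a description of the letters only.

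The C1q chains were among the most abundant transcripts of these cells and did not pass the test between the days. C1qa had 1317, 1266, 1492, 1252 and 1314 CPM in the day 14 libraries, against 1132, 995.5, 1308 and 1424 CPM in the day 4 libraries. C1qb had 1713, 1707, 1879, 1615 and 1695 CPM at day 14, against 1460, 1314, 1709 and 1743 CPM at day 4. C1qc had 734.4, 708.8, 906.5, 732.7 and 807.7 CPM at day 14, against 592.2, 541.3, 734.2 and 892.6 CPM at day 4. The day 14 values lay inside or just above the wider day 4 range for each chain, and the groups overlapped in all 3. The coefficient of variation of C1qa was 7.20% at day 14 and 15.6% at day 4. The log2 fold changes of day 14 over day 4 were 0.13 ± 0.11 for C1qa (SE, adjusted p = 0.398), 0.15 ± 0.10 for C1qb (adjusted p = 0.291) and 0.17 ± 0.14 for C1qc (adjusted p = 0.371). Their 95% intervals ran from -0.13 to 0.39 for C1qa, from -0.09 to 0.38 for C1qb and from -0.16 to 0.51 for C1qc, so rises up to those upper bounds were not excluded by these libraries. In the 6 shallowest libraries, 4 of day 14 and 2 of day 4, C1qc alone of the 3 passed the test, at a log2 fold change of 0.46 (adjusted p = 0.048). Day 4 replicates 3 and 4, which that subset leaves out, held the highest day 4 values of each chain.

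No change in the proportions of the 3 chains was detected. C1qa made up 34.7 ± 0.266% of the reads of the 3 chains at day 14 and 35.1 ± 0.307% at day 4 (SD, n = 5 and 4), a difference of -0.407 percentage points (exact two-sided permutation test over the libraries, p = 0.0794, 0.238 adjusted over 3 chains; the smallest p possible was 0.0159). C1qb made up 45.0 ± 0.947% at day 14 and 45.1 ± 1.46% at day 4 (exact p = 0.921), and C1qc made up 20.3 ± 0.904% at day 14 and 19.8 ± 1.52% at day 4 (exact p = 0.571). Across the 9 libraries, C1qa and C1qb were each other's nearest neighbours among 9033 expressed genes, with a root mean square difference of 0.037 between their centred log2 CPM profiles. C1qc followed them less closely: it was 46th in order for C1qa and 260th for C1qb, at differences of 0.0827 and 0.111. Seen from C1qc, C1qa was 11th and C1qb was 43rd among the same number of genes. The next genes in order were Nrros, a transmembrane protein of myeloid cells, and Srsf4, a splicing factor, for C1qa, and Agpat3, an acyltransferase of lipid synthesis, and Nrros for C1qb. For C1qc the first 3 in order were Fbf1, Adam15 and 1110038F14Rik.

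C4b, the component cleaved next in the classical pathway, lies on chr17:34728139-34743902 (minus strand). It had 356.4, 365.2, 429.0, 312.4 and 446.1 CPM at day 14, against 295.7, 208.2, 271.3 and 400.9 CPM at day 4. All day 14 values but those of replicates 3 and 5 lay below that of day 4 replicate 4, so the groups overlapped. The log2 fold change was 0.38 ± 0.17 (adjusted p = 0.108, 95% interval -0.02 to 0.77), and without day 4 replicate 4 it was 0.54 and passed the test (adjusted p = 0.0199). That same library was also the highest of day 4 for C1qa, C1qb, C1qc and Cfp. C4b has a near-identical copy, C4a, which averaged 1.98 ± 0.943 CPM at day 14 and 1.23 ± 0.303 CPM at day 4, and the estimated counts of C4b were fractional in all 9 libraries, so reads shared between the copies make its level uncertain.

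C3, whose cleavage all pathways share, had the largest difference among the members. It lies on chr17:57203967-57228136 (minus strand). C3 had 178.8, 147.7, 240.1, 161.9 and 191.3 CPM in the day 14 libraries, against 772.0, 499.4, 499.3 and 711.9 CPM in the day 4 libraries. The highest day 14 library, replicate 3, stayed well below the lowest day 4 library, so the groups did not overlap. Day 4 libraries differed among themselves, with replicates 1 and 4 above replicates 2 and 3. The mean was 184 ± 35.5 CPM at day 14 and 621 ± 142 CPM at day 4 (SD, n = 5 and 4), a log2 fold change of -1.75 ± 0.17 (SE, adjusted p = 1.7e-05). In bulk libraries, fewer cells of a type and less RNA per cell cannot be told apart.

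Cfb, factor B, supplies the protease of the alternative C3 convertase. It lies on chr17:34856374-34862514 (minus strand), away from C3 and near C4b. Cfb had 149.7, 138.4, 138.3, 142.4 and 142.6 CPM in the day 14 libraries, against 313.9, 302.4, 323.9 and 305.2 CPM in the day 4 libraries. Libraries of the same day were nearly alike, with a coefficient of variation of 3.27% at day 14 and 3.11% at day 4, and no day 14 library came near a day 4 library. The mean was 142 ± 4.65 CPM at day 14 and 311 ± 9.69 CPM at day 4, a log2 fold change of -1.13 ± 0.07 (adjusted p = 6.17e-07). Its annotation shares 2246 exon bases with the read-through gene Gm20547 on the same strand, and its counts were fractional in all 9 libraries, so part of the reads may belong to that transcript.

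C3 and Cfb passed the test in all 24 alternative settings, with log2 fold changes of -1.89 to -1.41 for C3 and -1.17 to -1.10 for Cfb. Cfp, properdin, which stabilises the convertase that factor B forms, did not pass. It lies on X (chrX:20925454-20931555, minus strand). Cfp had 467.9, 456.9, 573.5 and 504.1 CPM in day 14 replicates 1 to 4, against 526.1, 414.4, 537.1 and 641.9 CPM at day 4. The day 4 values enclosed all of the day 14 values. The mean was 501 ± 52.6 CPM at day 14 (n = 4) and 530 ± 93.0 CPM at day 4, with a log2 fold change of -0.08 ± 0.13 over 8 libraries (adjusted p = 0.674, 95% interval -0.41 to 0.25). Its sign turned under a few settings: it was 0.10 in the 6 shallowest libraries.

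The receptors of C3a and C5a overlapped between the days. C3ar1 (chr6:122847140-122856157, minus strand), the C3a receptor, had 688.1, 630.9, 549.7, 719.2 and 594.3 CPM at day 14, against 704.6, 609.0, 705.1 and 635.7 CPM at day 4. C5ar1 (chr7:16246743-16259540, minus strand), the C5a receptor, had 468.3, 430.8, 482.4, 509.9 and 478.4 CPM at day 14, against 634.4, 468.6, 496.7 and 526.2 CPM at day 4. The day 14 range of C3ar1 enclosed that of day 4, while for C5ar1 day 4 replicate 1 lay above all the rest. The log2 fold changes were -0.06 ± 0.10 for C3ar1 (adjusted p = 0.674, 95% interval -0.29 to 0.17) and -0.17 ± 0.10 for C5ar1 (adjusted p = 0.225, 95% interval -0.40 to 0.07). C5ar1 counts were fractional in 7 libraries.

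Per kilobase of transcript, the order of the levels changed only where C3 and Cfb fell. At day 14 the order was C1qb with 1582 CPM per kilobase, C1qa with 1277, C1qc with 647, Cfp with 306, C5ar1 with 187, C3ar1 with 148, C4b with 71.0, Cfb with 52.0 and C3 with 35.8 CPM per kilobase. At day 4 C1qb (1431 CPM per kilobase), C1qa (1168), C1qc (574), Cfp (324), C5ar1 (209) and C3ar1 (154) kept that order, followed by C3 with 121, Cfb with 114 and C4b with 54.7 CPM per kilobase. Neighbours in the order lay further apart than the larger of their SDs, except C3 and Cfb at day 4. Among 12814 tested genes with a transcript length, C1qb ranked 21st at day 14 and 23rd at day 4, while C3 ranked 1995th at day 14 and 509th at day 4. The day 14 ranks left out replicate 5. The 3 C1q chains took 66.1 to 69.9% of the summed CPM of the 8 members other than Cfp at day 14, against 53.9 to 62.0% at day 4. That sum includes C3 and Cfb, which fell, and no C1q chain passed the test, so the larger share is not a measured rise of C1q.

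**Figure D2:**
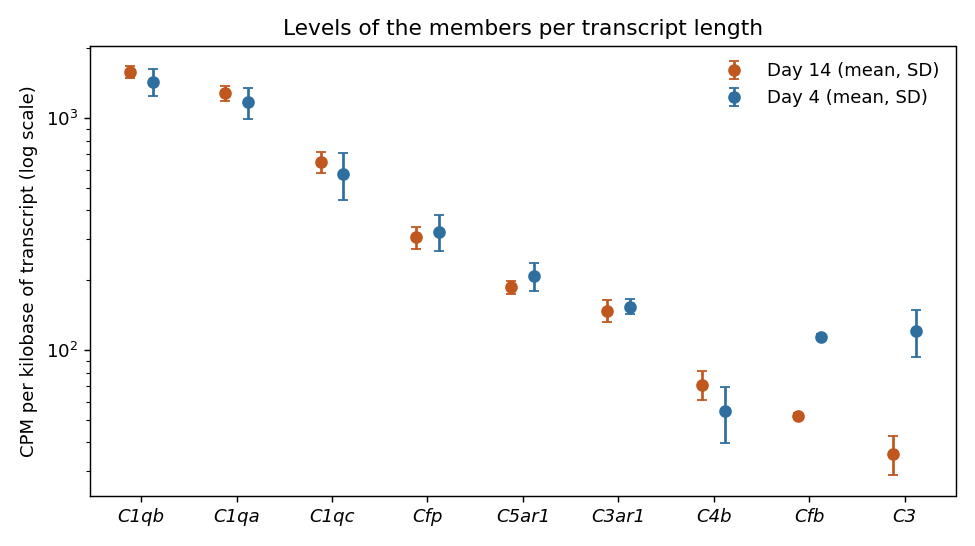
Mean CPM per kilobase of transcript with SD (log axis) for the 9 members, day 14 in orange left of day 4 in blue, ordered by the day 14 level. The C1q chains stand highest at both days. C3 and Cfb are the members that passed the test between the days, beside 30.9% of all genes tested.

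The genes with the profiles most like those of C3 and Cfb fell at day 14 as well, which choosing by profile implies. For Cfb these were Ptgr1, a prostaglandin reductase, with 36.9 ± 2.03 CPM at day 14 and 79.3 ± 3.14 CPM at day 4, Lgals3bp, which binds galectin-3, with 234 ± 15.8 CPM at day 14 and 515 ± 42.9 CPM at day 4, and Fcgr1, the high-affinity IgG receptor, with 135 ± 11.4 CPM at day 14 and 290 ± 18.7 CPM at day 4. Their root mean square differences from Cfb over 9 libraries were 0.083, 0.104 and 0.115 on the log2 scale. For C3 the nearest genes were Micall2, Mif, a cytokine named for macrophage migration inhibition, and Nt5dc2, at larger differences of 0.149, 0.182 and 0.194. Those of C5ar1 were Slc11a1, a phagosomal metal transporter, Nedd8, a ubiquitin-like modifier, and Itgb2, the β2 integrin chain. C3ar1 lay nearest to Fam175b, Zdhhc13 and Apbb1ip, C4b to Gramd1a, Smagp and Zfhx2, and Cfp, over 8 libraries, to Ranbp3, Ap1m1 and Cotl1.

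Of 50 names listed by role, 38 were in the table and 26 had enough counts for the test: 4 were higher at day 14, 7 were lower and 15 did not pass, with a median log2 fold change of -0.09. Over all genes tested, 15.9% were higher and 15.0% lower, so the share of higher genes on the list was near that of all genes. The share of lower genes, 7 of 26, was above that of all genes, and this difference was not tested. In classical and lectin initiation, 1 of 4 tested genes was lower. This was C1ra, a mouse form of the C1r protease, with 34.3 ± 4.77 CPM at day 14 and 50.2 ± 6.16 CPM at day 4 (log2 fold change -0.55 ± 0.11, adjusted p = 0.00353). C1s, the partner protease, averaged 50.3 ± 7.24 CPM at day 14 and 63.3 ± 14.6 CPM at day 4 (adjusted p = 0.101; 0.0454 without day 14 replicate 5). Fcna, ficolin A, a lectin that macrophages make in mice, averaged 67.6 ± 7.93 CPM at day 14 and 94.5 ± 41.1 CPM at day 4 (adjusted p = 0.139). Its log2 fold change of -0.48 was -0.70 without day 4 replicate 2 (adjusted p = 0.0111) and -0.18 without day 4 replicate 4. C2, which pairs with C4b in the classical convertase and is the neighbour and relative of Cfb, fell to 7.31 ± 0.943 CPM at day 14, against 12.9 ± 1.72 CPM at day 4 (log2 fold change -0.83 ± 0.13, adjusted p = 0.000549). Shared exon bases were counted for the members only, so reads that C2 may share with other genes were not examined. Cfd, factor D, the protease that cleaves factor B, was near the detection limit: it had 3 to 7 counts per library at day 14, against 12 to 32 at day 4 (log2 fold change -1.81 ± 0.47, adjusted p = 0.0125).

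Of 3 tested terminal genes, Hc, which encodes C5, was higher. It had 32, 45, 32, 29 and 36 counts at day 14, against 1, 20, 6 and 5 counts at day 4, and its log2 fold change was 2.64 ± 0.64 (adjusted p = 0.0085). The single day 4 library with 20 counts, replicate 2, overlapped the day 14 range in CPM, and without it the log2 fold change was 3.92. C6, a subunit of the membrane attack complex, had 16.6 ± 2.72 CPM in day 14 libraries and 15.4 ± 7.31 CPM in day 4 libraries (log2 fold change 0.10, adjusted p = 0.789). Without day 4 replicate 4 the log2 fold change of C6 was 0.47 and passed (adjusted p = 0.038).

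Fluid-phase regulators moved in both directions. Clu, clusterin, a chaperone that binds the terminal complex, averaged 3.36 ± 0.92 CPM at day 14 and 1.90 ± 0.663 CPM at day 4 (log2 fold change 0.80 ± 0.27, adjusted p = 0.0421), and passed in 10 of 23 alternative settings. Serping1, the C1 inhibitor, fell to 60.0 ± 11.6 CPM at day 14, against 98.5 ± 17.9 CPM at day 4 (log2 fold change -0.72 ± 0.15, adjusted p = 0.00333). None of the 3 tested membrane regulators passed: Cd55, which speeds convertase decay, Cd59a, which blocks the terminal complex, and Cr1l (Crry), a cofactor for cleavage of C3b. Cd55 averaged 20.9 CPM at day 14 and 18.4 CPM at day 4, and Cd59a 4.33 CPM at day 14 and 4.80 CPM at day 4. Cr1l averaged 45.0 CPM at day 14 and 43.6 CPM at day 4, with an adjusted p of 0.753.

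Of the 9 tested receptors 1 was higher and 3 were lower, beside 15.9% and 15.0% of all genes. The 2 alpha chains of the C3 fragment receptors moved in opposite directions. Itgax, which encodes CD11c of complement receptor 4, had 164.7, 186.3, 191.7, 182.1 and 196.8 CPM at day 14, against 106.9, 85.46, 99.45 and 88.69 CPM at day 4 (log2 fold change 0.95 ± 0.09, adjusted p = 1.7e-05). Itgam, which encodes CD11b of complement receptor 3, averaged 1203 ± 73.5 CPM at day 14 and 1637 ± 167 CPM at day 4 (log2 fold change -0.45 ± 0.09, adjusted p = 0.00343), and its protein was part of the sort gate. Their shared partner Itgb2 averaged 777 ± 46.0 CPM at day 14 and 898 ± 149 CPM at day 4 (log2 fold change -0.21, adjusted p = 0.172), and passed without day 4 replicate 2 at -0.32 (adjusted p = 0.0285). Lrp1, an endocytic receptor that with calreticulin takes up C1q-tagged cells, fell to 1092 ± 175 CPM at day 14, against 2009 ± 210 CPM at day 4 (log2 fold change -0.88 ± 0.12, adjusted p = 0.000272). Cd93, once described as a C1q receptor of phagocytes, fell to 612 ± 35.3 CPM at day 14, against 785 ± 99.4 CPM at day 4 (log2 fold change -0.36 ± 0.10, adjusted p = 0.0147). Calr, calreticulin itself, averaged 930 ± 26.7 CPM at day 14 and 859 ± 78.0 CPM at day 4 (adjusted p = 0.319), and C5ar2, the other C5a receptor, averaged 26.2 ± 5.95 CPM at day 14 and 22.1 ± 1.46 CPM at day 4 (adjusted p = 0.206). C1qbp, a mitochondrial protein first found by its binding to C1q, averaged 31.0 CPM at day 14 and 32.0 CPM at day 4 (adjusted p = 0.711).

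**Figure D3:**
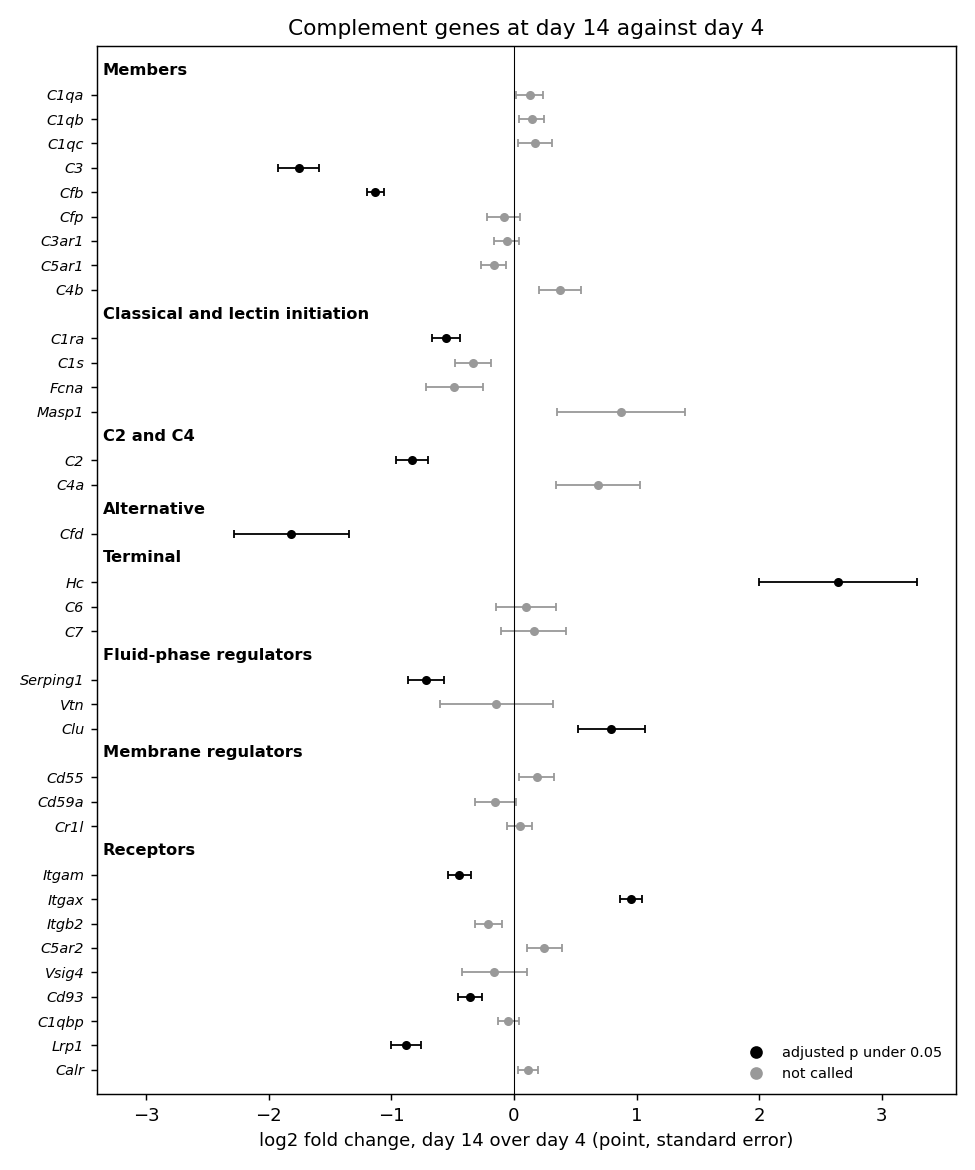
Log2 fold change of day 14 over day 4 with its standard error for the 9 members and tested genes of the wider list, grouped by role; black points have an adjusted p under 0.05 and grey points do not. C3 and Cfb are the black points among the members, while the wider list holds black points on both sides of 0.

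Markers of other cells also differed between the days. Fibroblast genes were lower at day 14 in 8 of 11 cases and higher in 0, none was at 0 in every library, and their summed level was 5700 to 9340 CPM at day 14, against 10300 to 20700 CPM at day 4, although the sort required CD45. Col3a1, a fibrillar collagen, averaged 3031 ± 628 CPM at day 14 and 5951 ± 1803 CPM at day 4. Fibroblasts also transcribe complement genes, among them C3, C1s and Serping1. Day 14 replicates 1 to 5 held 5700, 5780, 8300, 6490 and 9340 CPM of fibroblast markers, and C3 was highest in replicates 3 and 5, which held the most. Day 4 replicates 1 to 4 held 12400, 20700, 13500 and 10300 CPM, and C3 was highest in replicates 1 and 4, which held the least. With the mean fibroblast level as a covariate, a setting chosen after seeing the data, C3 was at -1.84 (adjusted p = 0.00166) and Cfb at -1.16 (adjusted p = 0.000235). Under that setting Itgax, Hc and Lrp1 still passed the test, but Serping1 was at -0.31 (adjusted p = 0.333), C1ra at -0.27 (adjusted p = 0.324) and C2 at -0.70 (adjusted p = 0.0576). Itgam was at -0.51 (adjusted p = 0.0627), Cd93 at -0.46 (adjusted p = 0.107), Cfd at -2.09 (adjusted p = 0.111) and Clu at 0.83 (adjusted p = 0.27). The summed fibroblast markers did not overlap between the days, so this setting cannot separate fibroblast content from day. Standard errors were also wider under it, for Itgam 0.15 against 0.09 in the main fit. Over the whole table it called 642 genes higher and 475 lower. In the 6 shallowest libraries C1ra was at -0.49 (adjusted p = 0.0701), Cfd at -1.78 (adjusted p = 0.0678) and Hc at 1.99 (adjusted p = 0.0841).

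**Figure D4:**
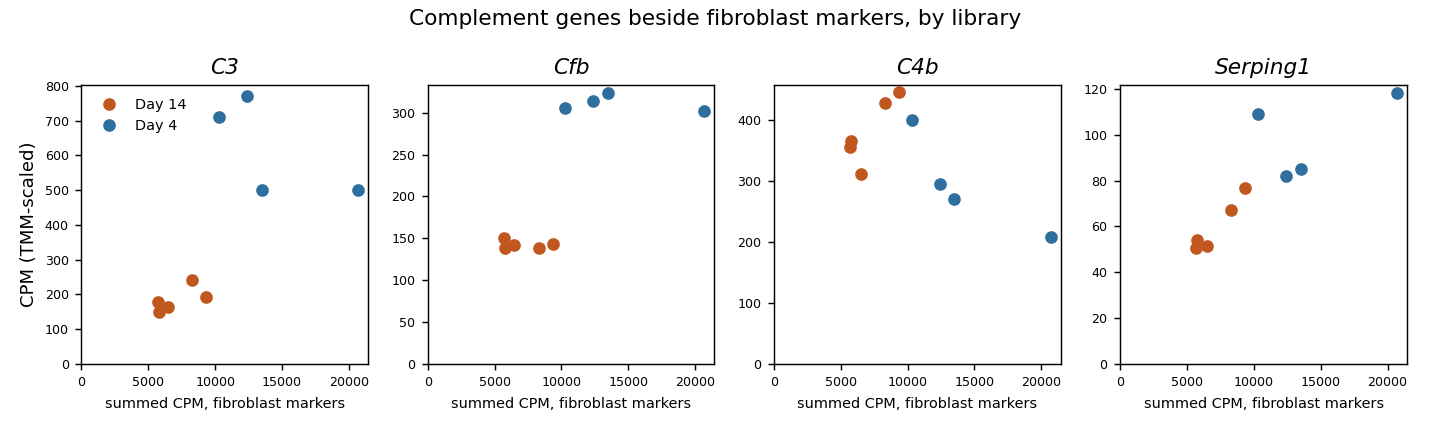
CPM of C3, Cfb, C4b and Serping1 in each library (vertical axes) against the summed CPM of the fibroblast markers in the same library (horizontal axes), day 14 in orange and day 4 in blue. Day 14 libraries hold 5700 to 9340 CPM of fibroblast markers and day 4 libraries 10300 to 20700 CPM; Cfb stays level within each day across that range.

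Neutrophil markers summed to 278 to 1800 CPM at day 14 and 978 to 2300 CPM at day 4, and 1 of 7 was lower at day 14. It was Mmp9, a gelatinase, with 57.3 ± 22.9 CPM at day 14 and 475 ± 144 CPM at day 4. S100a9, the most abundant, was not called, with 296 ± 316 CPM at day 14 and 449 ± 306 CPM at day 4. With the neutrophil marker level as a covariate, also chosen after seeing the data, C3 was at -1.41 (adjusted p = 0.000102) and Cfb at -1.14 (adjusted p = 1.65e-05). Clu was then at 0.98 (adjusted p = 0.0536), Itgam at -0.34 (adjusted p = 0.0597), Cd93 at -0.35 (adjusted p = 0.0917) and Cfd at -1.57 (adjusted p = 0.131), all short of the threshold, and C5ar2 passed at 0.48 (adjusted p = 0.0366). The summed neutrophil markers overlapped between the days, but the level includes Mmp9, which differed. This setting therefore cannot fully separate neutrophil content from day. Of 6 monocyte markers 4 were lower and 1 was higher at day 14. The higher one was the most abundant, Ccr2, the CCL2 receptor, with 893 ± 110 CPM at day 14 (n = 4) and 632 ± 114 CPM at day 4. It lies beyond the break of day 14 replicate 5 and so has no part in the sum over all libraries, which for the other 5 was 199 to 405 CPM at day 14 and 668 to 872 CPM at day 4. Of 9 dendritic cell markers 6 were higher and 0 lower, with a sum of 294 to 395 CPM at day 14 and 131 to 197 CPM at day 4. Cd209a, the most abundant of these, averaged 136 ± 19.8 CPM at day 14 and 51.5 ± 6.38 CPM at day 4; Itgax is also used as a dendritic cell marker. The part of the monocyte and dendritic shifts in the complement differences was not tested, and that of neutrophils was not settled by the covariate.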

How the data were processed

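RNA of sorted skin wound macrophages was made into unstranded, paired-end TruSeq libraries, per the labels. The submitters' processing notes name CASAVA 1.8, HISAT2 2.1.0, SAMtools 1.4, Partek 6.6, DESeq2 and mm10, with no roles given. The authors deposited estimated counts per gene (expected counts), of which 17.2% on average were not whole, and these were rounded here. The counting annotation is not given in the sources used here. The members and lists were chosen with earlier results of these data known.

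Day 14 (n = 5) and day 4 (n = 4) were compared with edgeR 4.0.16 in R 4.3.3 (TMM, filterByExpr, robust quasi-likelihood test, two-sided), with Benjamini-Hochberg adjustment over 13364 genes and a threshold of 0.05. Beyond the break in day 14 replicate 5 lay 1514 genes of the table, 17 of them without a known position. Those that passed the filter on low counts were fitted on 8 libraries, and the p-values were joined. Standard errors were derived from the F statistic. Intervals (95%) used the t quantile at 7 residual degrees of freedom, or 6 for genes fitted on 8 libraries. The test also draws on the spread of other genes, so intervals can be wider than its p-values imply. Total counts were 17982633 to 57809918, and no interval here covers more than the spread between libraries. Positions and lengths came from GENCODE M21 (GRCm38), matched by symbol for 17100 genes and by older name for 1097; 106 had none.

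Named were all members, wider genes that were called or averaged at least 20 CPM, the 3 nearest profiles per member (log2 CPM with a prior count of 2, genes of at least 5 CPM), and the most abundant markers. Cd55, Cd59a, C6 and C7 were named beside them for their role, after their values were seen. Alternatives were 3 other scalings (total count, upper quartile, RLE), DESeq2 1.42.0, limma-voom 3.58.1, other filters, single fits, covariates and left-out libraries. One gene of the wider list enters its counts but is not reported here.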

Additional observations from a re-analysis of the deposited data

Results flagged for a closer look

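In 60 groups of 4 or 5 values checked for a library far from the others, 3 were found, where chance alone gives about 1 in 20. C1qa in day 14 replicate 3 was at 1490 CPM, with the next day 14 library at 1320 CPM and the lowest at 1250 CPM. Hc in day 4 replicate 2 was at 0.732 CPM, with the other day 4 libraries at 0.0404 to 0.117 CPM. The share of C1qb among the C1q chains in day 4 replicate 4 was 42.9%, with the other day 4 libraries at 45.6 to 46.1%.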

How the results depend on the processing

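C3 and Cfb kept their direction and call in all 24 alternatives. The genes called over the whole table were 1028 higher and 1050 lower in the 6 shallowest libraries, 642 higher and 475 lower with the fibroblast covariate, and 1190 higher and 953 lower with the neutrophil covariate; leaving out 1 library gave 1583 to 2290 higher and 1457 to 2569 lower. Of the wider complement genes, 2 were higher with a filter of 5 CPM and 2 with the fibroblast covariate, while 1 was lower with the fibroblast covariate and 4 with the neutrophil covariate. In the same 6 libraries, C1qc was at a log2 fold change of 0.46 (adjusted p = 0.048) and Cfp at 0.10. Cfp was at 0.0501 with the neutrophil covariate and at -0.21 to 0.00113 with 1 library left out, the highest without day 4 replicate 4. C1qa was at -0.0234 with the fibroblast covariate. C4b was at 0.22 to 0.54 with 1 library left out, and passed the test (adjusted p = 0.0199) without day 4 replicate 4. The C1qb share differed by -0.824 to 0.225 percentage points with 1 library left out. The cause of these moves was not tested. One fit of all genes on all 9 libraries, including the incomplete one, called 1713 higher and 1694 lower. Depth limits Cfd and Hc, with counts down to 1 in a library. No paired analysis was possible because the labels give no replicate numbers shared between the days.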

Other observations

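Markers of other leukocytes were present at low levels. Of 3 tested eosinophil markers, 3 were higher at day 14: Prg2, a granule protein, averaged 12.9 ± 2.25 CPM at day 14 and 4.41 ± 1.18 CPM at day 4, and Ccr3, the eotaxin receptor, averaged 32.9 ± 10.6 CPM at day 14 (n = 4) and 8.84 ± 1.44 CPM at day 4. Of 4 mast cell markers 2 were higher and 1 was lower at day 14. Kit, the stem cell factor receptor, fell to 6.12 ± 1.20 CPM at day 14, against 13.6 ± 5.57 CPM at day 4, while Cpa3, a mast cell protease, was higher, with 3.48 ± 0.899 CPM at day 14 and 1.10 ± 0.218 CPM in day 4 libraries. Cd79b, a B cell receptor subunit, was higher, with 9.97 ± 1.30 CPM in day 14 libraries and 5.26 ± 1.41 CPM in day 4 libraries, while Cd79a was under the filter on low counts, with 0.19 ± 0.115 CPM in day 14 libraries and 0.433 ± 0.301 CPM in day 4 libraries. Of 5 tested keratinocyte markers 3 were higher, and none of 4 endothelial markers passed, with Pecam1 averaging 19.6 ± 4.28 CPM at day 14 and 22.3 ± 1.92 CPM at day 4. No T or NK cell marker had enough counts for the test.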
